A study of Mus musculus with 32 samples.

Results

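Small nucleolar RNAs (snoRNAs) and small Cajal body RNAs (scaRNAs) were examined in BV-2 cells across 32 sequencing libraries. The members were the rows of the expression table whose gene name began with Snora, Snord or Scarna and that held a value above 0 in at least 16 libraries. Of 45706 genes in the table, 131 carried such a name and 70 met the rule, namely 26 box C/D RNAs (Snord), 35 box H/ACA RNAs (Snora) and 9 scaRNAs (Scarna). Snora65 and Snord65 lay just inside the limit with values above 0 in 16 libraries, and Snord104 and Snord7 lay just outside it with 15. A further 10 of the named rows were at 0 in every library.

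BV-2 is an immortalised mouse microglial line, described in the labels as wild-type and as glioblastoma cells. They were given vehicle (VEH) or, at 10 ng/ml, the bacterial endotoxin lipopolysaccharide (LPS) for 24 h and were transfected with a scrambled negative control (scramble) or with a mimic of miR-146a-5p, of miR-29a-3p or of miR-7a-5p, and total RNA was sequenced after removal of ribosomal RNA. This gave 8 groups of 4 libraries, called VEH_scramble, VEH_miR-7a, VEH_miR-29a, VEH_miR-146a, LPS_scramble, LPS_miR-7a, LPS_miR-29a and LPS_miR-146a. Every group thus received an oligonucleotide, the share of cells that took it up is not given, and 1 transformed line stood for microglia. The labels place LPS before transfection and the study's methods place it after, so the order is not settled. All 7 microglial and macrophage markers examined were present in every library, with a summed level of 1844 to 4059 counts per 1e6 library counts (CPM), against 0 to 0.576 for 3 astrocyte, 0 to 2.30 for 3 neuronal and 1.75 to 19.1 for 3 oligodendrocyte markers. The mimics within a condition shared the same 4 scramble libraries, and p-values measure the spread between these libraries.

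Box C/D RNAs carry the short C and D motifs, assemble with the methyltransferase fibrillarin and guide methylation of ribose in ribosomal RNA. Box H/ACA RNAs carry the H and ACA motifs, assemble with the pseudouridine synthase dyskerin and guide the conversion of uridine to pseudouridine. The scaRNAs use the same machinery in Cajal bodies on the small nuclear RNAs of the spliceosome, and a few members of both families take part in cutting of the ribosomal RNA precursor instead. Most mammalian snoRNAs are released from introns of host genes, many of which encode ribosomal or nucleolar proteins.

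The sequences of 4 members are given because the results below turn on them. Snord17 reached the highest level per kilobase of any member in a single library, and Snord82 was the only member with all VEH_miR-7a libraries below all VEH_scramble libraries. Snora73a and Snora73b are the paired copies of the U17 RNA that works in cutting of the ribosomal RNA precursor. Sequences are those of the GENCODE transcripts on the mouse assembly GRCm38, read 5′ to 3′ on the minus strand, at chr2:144265979-144266216 for Snord17, chr1:86356261-86356330 for Snord82, chr4:132352775-132352979 for Snora73a and chr4:132352322-132352526 for Snora73b. Capitals mark the C box and the D box in the box C/D RNAs and the ACA box in the box H/ACA RNAs.
Snord17: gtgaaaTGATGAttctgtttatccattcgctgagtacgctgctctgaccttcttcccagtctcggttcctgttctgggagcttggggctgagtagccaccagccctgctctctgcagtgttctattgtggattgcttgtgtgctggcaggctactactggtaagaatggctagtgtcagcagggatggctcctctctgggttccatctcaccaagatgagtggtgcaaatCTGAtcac
Snord82: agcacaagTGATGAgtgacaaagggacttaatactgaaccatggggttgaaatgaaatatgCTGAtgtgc
Snora73a: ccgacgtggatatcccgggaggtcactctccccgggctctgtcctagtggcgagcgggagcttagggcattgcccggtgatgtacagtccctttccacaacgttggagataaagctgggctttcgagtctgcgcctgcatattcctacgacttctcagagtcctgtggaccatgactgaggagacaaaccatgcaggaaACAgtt
Snora73b: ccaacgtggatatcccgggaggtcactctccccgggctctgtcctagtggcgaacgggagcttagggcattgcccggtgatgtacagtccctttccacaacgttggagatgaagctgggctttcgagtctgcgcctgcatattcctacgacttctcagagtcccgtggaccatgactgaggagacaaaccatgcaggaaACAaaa

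The C, D and ACA boxes were found mainly in their own families in the annotated sequences, searched on the RNA strand only. The looser H box pattern, searched as ANANNA in all but the last 10 bases, was found in 35 of 35 box H/ACA members but also in 23 of 26 box C/D members and 8 of 9 scaRNAs, and so did not separate the families. TGATGA stood in the first 20 bases of 20 of 26 box C/D members and of 0 of 35 box H/ACA members, and CTGA stood in the last 15 bases of 24 of 26. ACA stood in the last 8 bases of 33 of 35 box H/ACA members and of 4 of 26 box C/D members. By comparison, TGATGA was found in 3.42% of all 20-base windows of the annotated member sequences, CTGA in 11.9% of 15-base windows and ACA in 10.9% of 8-base windows. The scaRNAs were mixed, with the C box in 4, the D box in 5 and the ACA box in 4 of 9. Snora73a and Snora73b, both 205 bases long and both within Snhg3, differed at 7 positions (96.59% identity), so reads that cover no such position cannot be told apart between them.

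The families were not retained equally by the rule. It kept 31.7% of the named box C/D rows, 87.5% of the box H/ACA rows and all 9 scaRNA rows. The box C/D rows that were kept had a median length of 87 bases and those left out 74.5, against 133 bases for the box H/ACA members and 140 for the scaRNAs. Of all 70 members, 59 were at most 150 bases long and 21 at most 100.

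Host genes were annotated for 62 members in 51 genes, of which 8 genes held more than 1 member. Ribosomal protein genes, 15 in number, held 19 members, and noncoding host genes held 17. Within their hosts 33 members lay in an intron and 29 overlapped an annotated exon, where reads of the host's spliced RNA can be assigned to the small RNA. The remaining 8 members, among them Scarna2, Snord118 and Snord13, had no annotated host. Snora26 was a row of 2347 bases annotated as a processed transcript, and its values are not those of a small RNA.

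Levels are given as normalised CPM (restored counts over library size with TMM scaling, which equalises the bulk of genes between libraries) and, where genes are compared, per kilobase of annotated length. The order per kilobase differed between groups. In VEH_scramble it was led by Scarna13 at 1991 ± 638 CPM per kilobase, Scarna2 at 1504 ± 670.1 and Snora73a at 1203 ± 477, with Scarna6 at 846 ± 373 and Snord17 at 695 ± 417 (SD, n = 4), and neighbours differed by less than their spread. In LPS_scramble Scarna2 at 540.4 ± 126 and Scarna13 at 539 ± 172 led, and Snord17 was at 177 ± 113. In the mean over all 32 libraries, which VEH_miR-7a replicates 2, 3 and 4 raise, Snord17, a box C/D RNA in an intron of Snx5, came first at 1623 CPM per kilobase, followed by Scarna6 at 1567 and Snora73a at 1516. Scarna6, within Atg16l1, is also known as U88 and guides modification of U5 small nuclear RNA. Next in the order of that mean came Snora73b at 1267, Scarna13 at 1218, Scarna10 at 952, Snora74a at 871, Scarna2 at 783, Snord33 at 330.3 and Snora68 at 198, where those of Scarna10, Snora74a and Snora68 include 1 or 2 uncertain values (counts whose lost decimal mark was put back with a probability under 0.9). Scarna10 is the U85 RNA, which guides modification of U5, and Scarna2 guides methylation of U2. The ranges over the 32 libraries overlapped for all neighbours in this order. The level of Scarna2 in single libraries, not divided by length, ran from 127 to 866 CPM and that of Snord33 from 4.89 to 182. At the other end, Snord65, in the noncoding gene 2410006H16Rik, averaged 1.06 CPM per kilobase. The scaRNAs made up 57.3% of all member counts, box H/ACA RNAs 30.2% and box C/D RNAs 12.5%. Scarna2 alone made up 19.6% and Scarna13 14.99%. These pooled shares hide differences between libraries. The scaRNAs made up 65.0% ± 4.31 of member counts in VEH_scramble and 49.4% ± 16.1 in VEH_miR-7a (SD, n = 4), and Scarna2 ran from 3.72% to 38.8% over the 32 libraries.

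The libraries held 1196351 to 20501419 counts, and 42 to 70 members had a value above 0 in each. A count of 3 corresponded to 0.147 to 4.09 CPM depending on the library, and values near or below it carry little information. VEH_miR-7a replicates 2, 3 and 4 stood apart from all other libraries. Genes of all small structural RNAs (nuclear, nucleolar, signal recognition and similar classes, with genes annotated as ribosomal RNA) took 39.2%, 35.1% and 37.7% of their counts, against 6.15% in replicate 1 of the same group. The share was 19.2% in VEH_miR-29a replicate 2 and 2.55% to 12.4% in the other libraries. With 1808190, 2423749 and 1196351 counts these replicates were also among the shallowest, beside VEH_miR-146a replicate 1 with 1654524. Results that involve them are given with and without the library that differed within its group, and the part of RNA recovery, of depth or of an exchange of samples in them was not tested.

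Taken as a sum, the members were a small and variable part of each library. In VEH_scramble they took 0.132%, 0.258%, 0.232% and 0.271% of counts in replicates 1 to 4 (mean 0.223% ± 0.0628, SD, n = 4). In VEH_miR-7a they took 0.128% in replicate 1 but 1.13%, 1.12% and 0.974% in the others (0.837% ± 0.478). The replicate 1 value lay just below the VEH_scramble range and the other values were above every other library of the series. These values depended on the restoration of the counts. With 1 set of library sizes for all genes replicates 2, 3 and 4 were at 0.813%, 0.623% and 0.502%, and VEH_miR-29a replicate 2 at 0.505% then exceeded VEH_miR-7a replicate 4. In VEH_miR-29a the shares were 0.122%, 0.487%, 0.170% and 0.107% (0.222% ± 0.179), with replicate 2 above all VEH_scramble libraries. In VEH_miR-146a they were 0.0760%, 0.145%, 0.0884% and 0.0999% (0.102% ± 0.0300), so that only replicate 2 overlapped the VEH_scramble range.

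**Figure D1:**
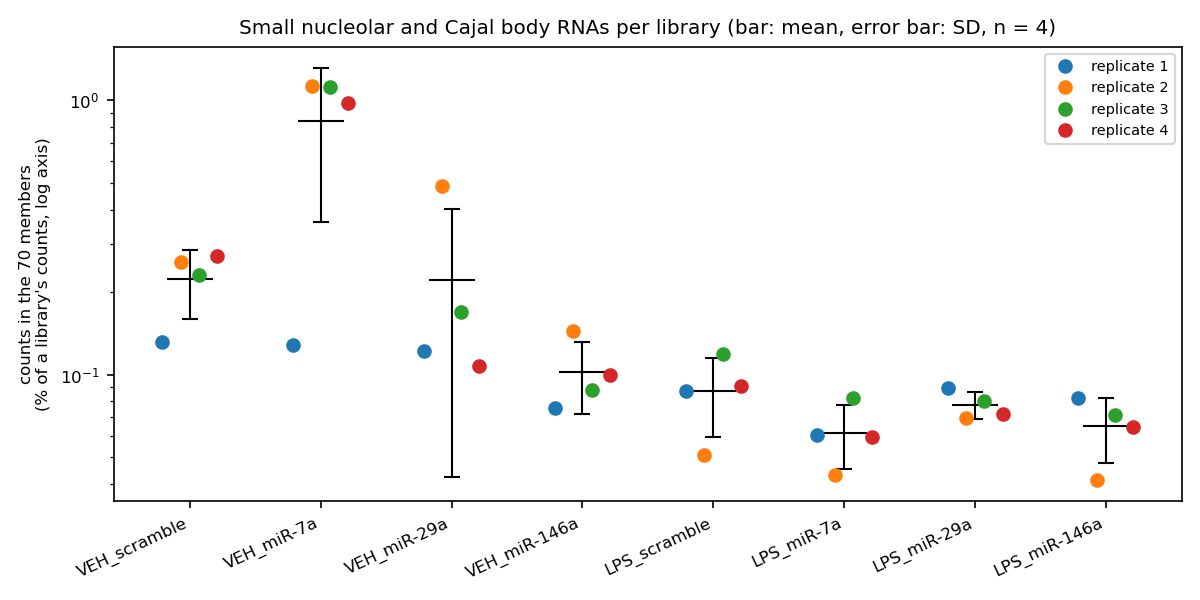
Share of each library's counts in the 70 members (y axis, percent of counts, log scale) for the 8 groups (x axis), with 1 point per library coloured by replicate number, a line at the group mean and error bars of 1 SD (n = 4). VEH_miR-7a replicates 2, 3 and 4 sit at 0.974% to 1.13%, while all LPS libraries sit at or below 0.119%.

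Under LPS the mean summed share of each group was below that of the same mimic or scramble under vehicle. It was 0.0874%, 0.0512%, 0.119% and 0.0913% in LPS_scramble (0.0872% ± 0.0278), below every VEH_scramble library. The means were 0.0614% ± 0.0161 in LPS_miR-7a, 0.0779% ± 0.00899 in LPS_miR-29a and 0.0649% ± 0.0174 in LPS_miR-146a (SD, n = 4 each). In bulk RNA, fewer cells that make an RNA and less of that RNA per cell cannot be told apart. No p-value is given for the summed share, because the members were chosen with earlier results of these data known.

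**Figure D2:**
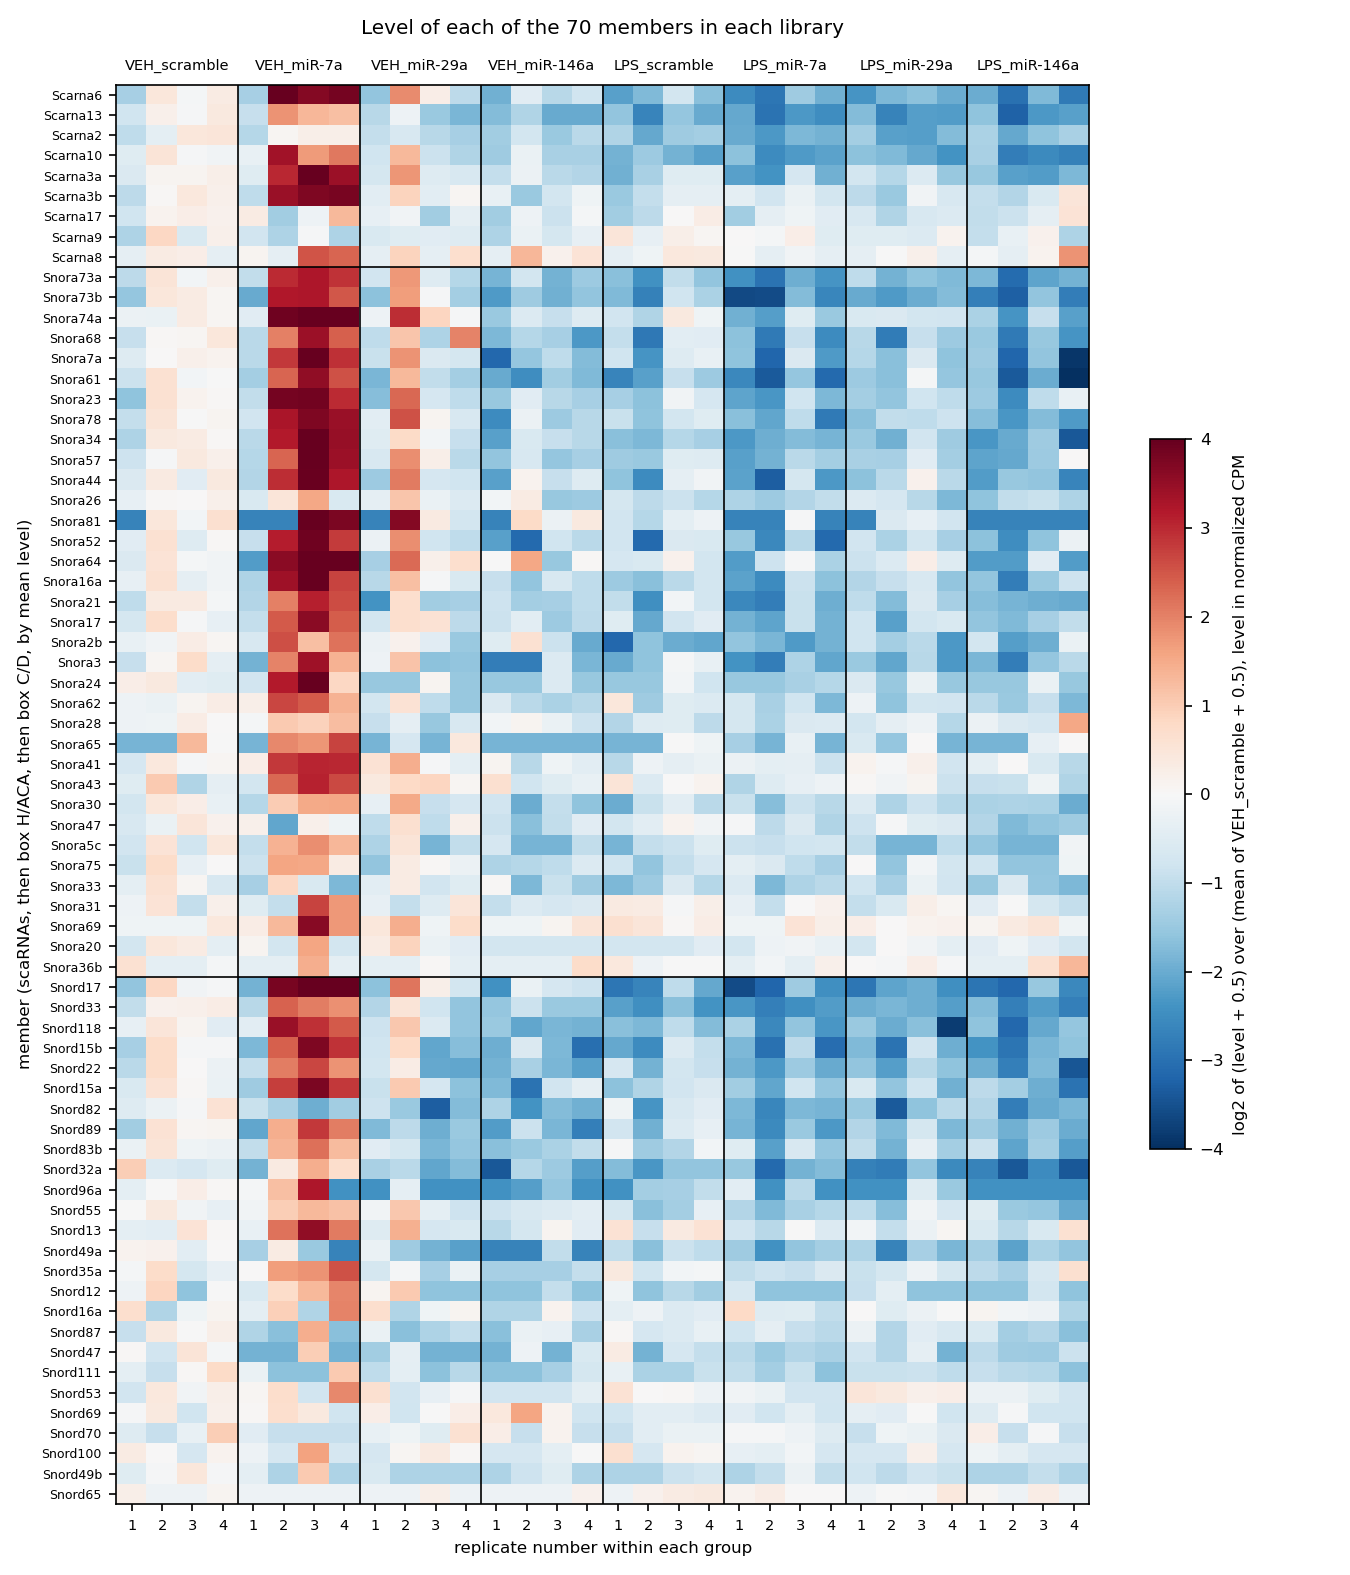
Level of each of the 70 members (rows, scaRNAs, then box H/ACA, then box C/D RNAs) in each of the 32 libraries (columns), coloured by the log2 ratio of the level in CPM plus 0.5 to the VEH_scramble mean plus 0.5. In the columns of VEH_miR-7a replicates 2, 3 and 4 all values of 43 members lie above those of every VEH_scramble library.

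With the miR-7a mimic under vehicle, most members were far above the scramble libraries in replicates 2, 3 and 4 and within or below their range in replicate 1. Snord17 was at 44.0 CPM in replicate 1 and at 2302, 3749 and 3608 CPM in the others, against 55.3, 296, 149 and 160.5 in VEH_scramble. Scarna6 was at 88.4 CPM in replicate 1 and at 3574, 2847 and 3182 CPM in the others, against 88.9, 309.8, 214 and 284. For both RNAs the 3 high libraries were above the scramble range and replicate 1 was below it. Snora73a, the U17 RNA whose sequence is given above, was at 124, 1963, 2348 and 1818 CPM against 119.8, 351, 231 and 285. Its replicate 1 value lay at the low end of the scramble range.

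Not all members took this course. Scarna2, which has no host gene, was at 284, 663, 736 and 729 CPM in VEH_miR-7a against 306, 475, 845 and 866 in VEH_scramble, and its values in replicates 2 to 4 lay within the scramble range. Snord82, the 70-base RNA in an intron of Ncl shown above, was at 6.01, 4.38, 2.58 and 4.09 CPM against 7.81, 9.71, 11.1 and 17.3. It was the only 1 of 70 members for which every VEH_miR-7a library was below every VEH_scramble library, against 4.81% of all genes with values in at least 16 libraries. Its VEH_miR-7a values rest on 31, 5, 4 and 3 counts, so those of replicates 2 to 4 carry little information. Scarna13 was intermediate, at 286, 1886, 1382 and 1265 CPM against 312, 627, 531 and 721. Scarna13 lies in an intron of the noncoding gene Snhg10.

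**Figure D3:**
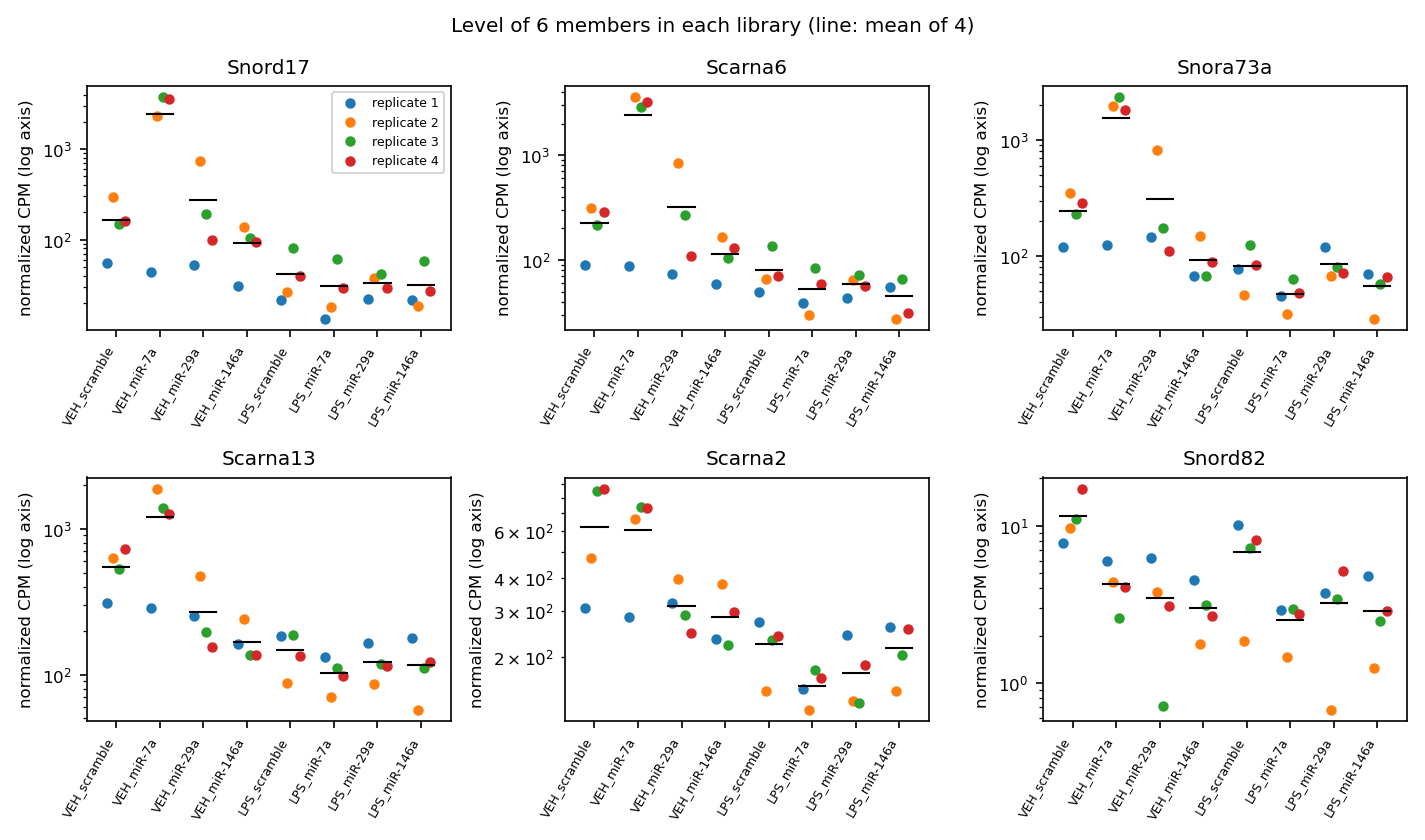
Level in every library (y axis, normalised CPM, log scale) of Snord17, Scarna6, Snora73a, Scarna13, Scarna2 and Snord82 in the 8 groups (x axis), with 1 point per library coloured by replicate number and a line at the group mean. Snord17 and Scarna6 reach 2302 to 3749 CPM in VEH_miR-7a replicates 2, 3 and 4, Scarna2 stays between 663 and 736 there, and Snord82 lies between 2.58 and 4.38.

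Tested over all 4 replicates without pairing of the libraries, no member passed the threshold for VEH_miR-7a against VEH_scramble. The threshold was a Benjamini-Hochberg adjusted p under 0.05 over all genes and an absolute log2 fold change above 0.3 (limma-voom). Of the 70 members, 31 could be tested, 27 were removed for low counts and 12 for an uncertain value. Among all genes tested 0.0450% were called. Of the 31 members, 29 had a positive log2 fold change and 5 had an unadjusted p under 0.05, and the median was 1.31 (median of all genes -0.01). The edgeR quasi-likelihood test also called 0, but a fit with the replicate number as a block called members higher, as given at the end. Same-numbered libraries of these groups did not all deviate together (lowest correlation -0.07), so the groups were taken as unpaired. Snora73a had a log2 fold change of 2.18 ± 0.76 (SE, limma-voom adjusted p = 0.303), Scarna6 2.74 ± 0.96 (adjusted p = 0.303) and Snord82 -1.199 ± 0.44 (adjusted p = 0.314). With library sizes and TMM factors of their own for small structural RNA genes, the median of the 29 members tested was -0.02. The members are themselves part of that class.

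Leaving out replicate 1 changed this count. Without it, 29 of 33 members tested were called higher and 0 lower, with a median log2 fold change of 3.42, while 1.70% of all genes were called higher and 0.297% lower. By family these were 8 of 9 box C/D members (median 2.62), 17 of 19 box H/ACA members (median 3.54) and 4 of 5 scaRNAs (median 3.75). Because replicate 1 differs from its group in the very quantity that is counted, this number describes the other 3 libraries and is not a test of the mimic. The filter of this fit asked for 2.84 CPM (before TMM scaling) in 3 libraries. Of the 29, 9 would not have passed it by the VEH_scramble libraries alone, namely Snora64, Snora41, Scarna3b, Snora16a, Snord83b, Snora44, Snora52, Snord15a and Snora17, so that they entered through the libraries where they were high. Of the 21 members that the group with the lower mean alone would have passed, 20 were called higher, with a median of 3.18. Snord17, 1 of these, was at 4.51 ± 0.43 (SE, limma-voom). Leaving out any other single library called 0 members. In the same comparison without filter on counts, 43 of 70 members were above every VEH_scramble library in all of replicates 2 to 4, against 6.24% of all genes with values in as many libraries, and 33 of 70 were below every VEH_scramble library in replicate 1, against 17.6% of all such genes. Both counts include uncertain values, and over members without one they were 37 of 58 and 29 of 64.

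Members high in those replicates were mostly the longer ones, which was not tested. Of 49 members longer than 100 bases, 39 were above every VEH_scramble library in replicates 2 to 4, and of 21 members of at most 100 bases, 4 were. Among box C/D RNAs these were 7 of 7 longer and 4 of 19 shorter members, and among longer members they were 27 of 35 box H/ACA RNAs and 5 of 7 scaRNAs. Of the 26 members whose VEH_scramble mean reached 4.09 CPM, worth 3 counts in the shallowest of them, 21 of 23 longer and 1 of 3 shorter members were above, the exceptions being Scarna2, Snora26, Snord82 and Snord32a. Those of Snora26 and Snord32a rest on an uncertain value. Among members without one, 19 of 20 longer and 1 of 2 shorter members above that level were higher, the exceptions being Scarna2 and Snord82. The fold of the mean of replicates 2 to 4 over the VEH_scramble mean was 19.5 for Snord17, 14.3 for Scarna6, 8.28 for Snora73a, 2.76 for Scarna13, 1.14 for Scarna2 and 0.321 for Snord82. The value of Snord82 rests on 5, 4 and 3 counts in those replicates.

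Most host genes were not called in the same fit. Without replicate 1, the 21 hosts of tested members had a median log2 fold change of 0.02, and 2 of them were called higher, against 1.70% of all genes. These were the noncoding hosts Snhg3 at 3.00 ± 0.32 and Snhg12 at 1.96 ± 0.35 (SE, limma-voom), which hold Snora73a and Snora73b, and Snora44, Snora61 and Snora16a. All but Snora73b of these members overlap an exon of the host, so host and small RNA share reads. Snord17 was at 4.51 while its host Snx5 was at -0.16, and Scarna6 was at 4.01 while Atg16l1 was at 0.05. Ncl, which encodes the nucleolar protein nucleolin and hosts Snord82, was at 0.61. No test of member against host was made.

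**Figure D4:**
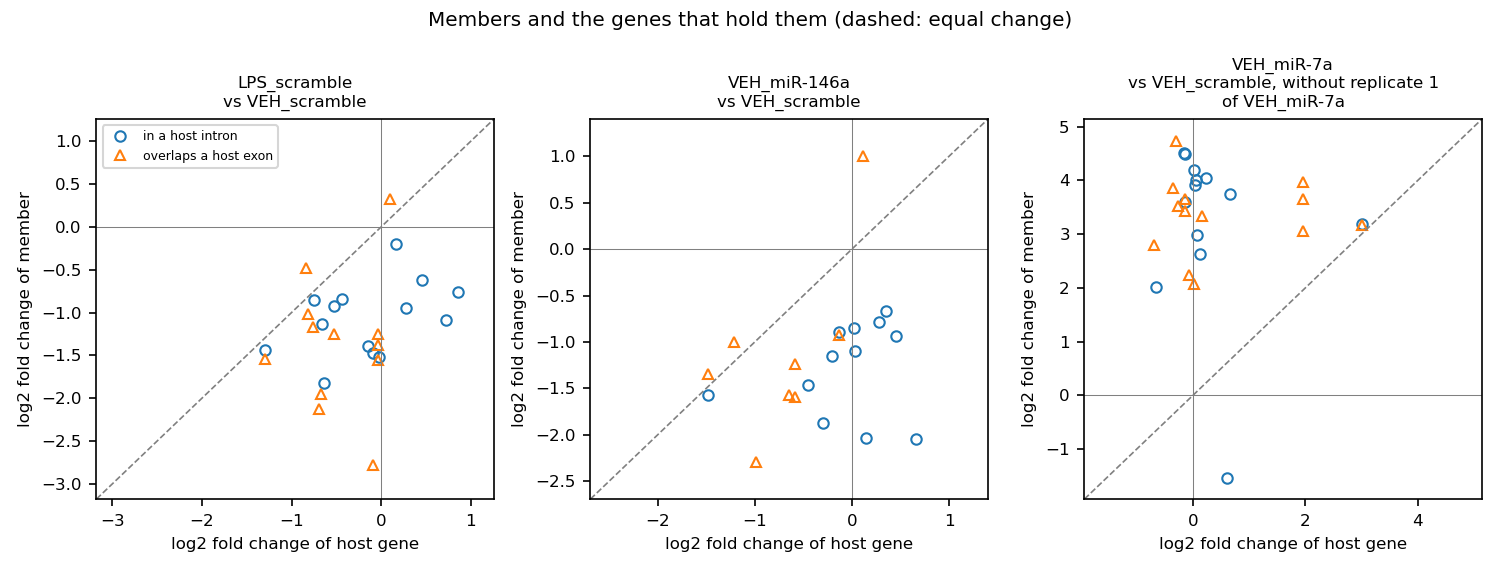
Log2 fold change of each tested member (y axis) against that of its host gene (x axis) for LPS_scramble, VEH_miR-146a and VEH_miR-7a without replicate 1, each against VEH_scramble, with 1 point per member, circles for members in an intron, triangles for those overlapping an exon and a dashed line of equal change. In the panel for VEH_miR-7a members run from -1.53 to 4.74, while the median of the hosts is 0.02.

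Some other small structural RNAs were high in the same libraries. The RNA of RNase MRP, Rmrp, was at 2767, 67736, 53788 and 42240 CPM in VEH_miR-7a against 3191 to 10315 in VEH_scramble, and the RNA of RNase P, Rpph1, was at 12439, 214146, 118776 and 149136 CPM against 8997 to 28084. The 7SK RNA, Rn7sk, which holds the elongation factor P-TEFb, was at 14101, 27939, 37068 and 33986 CPM against 18022 to 39740, within the scramble range in the high libraries as Scarna2 was. The 102 other structural genes tested over all 4 replicates had a median log2 fold change of 1.49, and 0 were called.

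With the miR-146a mimic under vehicle, 4 members fell and none rose. Of 28 members tested, Snord82, Snord118, Scarna13 and Snora7a were called lower, against 0.825% of all genes (0.706% higher), and 27 had a negative log2 fold change (median -1.196, all genes -0.04). Snord118, the U8 RNA needed for maturation of the large ribosomal subunit RNAs, was at 3.88, 2.43, 3.00 and 2.81 CPM against 9.34, 16.6, 12.7 and 8.56 in VEH_scramble, a log2 fold change of -1.87 ± 0.32 (limma-voom adjusted p = 0.0283). Snord82 was at 4.53, 1.78, 3.11 and 2.66 CPM against 7.81 to 17.3, a change of -2.05 ± 0.38 (adjusted p = 0.0345). Neither RNA overlapped between the groups.

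Scarna13 was at 162, 239, 137 and 136 CPM with miR-146a against 312 to 721, a log2 fold change of -1.66 ± 0.26 (limma-voom adjusted p = 0.0242). Snora7a, a box H/ACA RNA of the ribosomal protein gene Rpl32, was at 1.29, 4.86, 7.34 and 4.28 CPM against 10.7 to 17.9, a change of -1.59 ± 0.35 (adjusted p = 0.0463). For both, every miR-146a library was below every scramble library. Snora7a reached the low-count limit of the fit in 3 of the 4 libraries of miR-146a, so that it entered with the help of the scramble libraries. Of the 14 members that the group with the lower mean alone would have passed, 3 were called. Every miR-146a library was below every scramble library for 20 of 70 members (15 of 59 without an uncertain value), against 6.91% of all genes with values in as many libraries. The host Ncl of Snord82 was at 0.66 (adjusted p = 0.0992) and the host Rpl32 of Snora7a at -0.59 (adjusted p = 0.256). Snhg3, the host of both Snora73 RNAs, was called lower at -1.49 ± 0.31 (adjusted p = 0.0403), beside -1.34 for Snora73a (adjusted p = 0.0577) and -1.57 for Snora73b (adjusted p = 0.0555).

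These calls were not stable. The structural RNA share was 3.88% to 7.29% in VEH_miR-146a and 6.78% to 12.4% in VEH_scramble, and its part in the result was not tested. With library sizes of their own for structural RNA genes 0 of 28 members were called (median -0.19), and without single libraries the count ran from 0 to 17. The edgeR quasi-likelihood test called 9 members lower. Fits with the replicate number as a block or with sample quality weights also called more than the main fit, as given at the end.

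With the miR-29a mimic under vehicle, 0 of 30 members tested were called by limma-voom, as by edgeR, and 0.00858% of all genes were. The median log2 fold change was -0.29, 26 members were negative and 6 had an unadjusted p under 0.05. Snord82 had the smallest p at -2.10 ± 0.50 (limma-voom adjusted p = 0.221), with 6.21, 3.78, 0.711 and 3.11 CPM against 7.81 to 17.3, and all 4 libraries lay below the scramble range. Such separation was seen for 5 of 70 members (4 of 61 without an uncertain value) and 2.67% of all genes with values in as many libraries. Next came Snord49a at -2.17 (adjusted p = 0.244) and Snord83b at -1.46 (adjusted p = 0.308). None of Snord82, Snord49a and Snord83b reached the low-count limit of the fit (1.98 CPM before TMM scaling) in every VEH_miR-29a library. They entered with the help of VEH_scramble, where they were higher. Replicate 2, whose structural RNA share was 19.2%, had 736 CPM of Snord17 and 838 of Scarna6, against at most 193 and 269 in the other replicates. Without it the median was -0.94, and 1 of 32 members was called lower, Snord96a, as was 0.00832% of all genes. It was at 0 in the remaining replicates and reached the low-count limit only in VEH_scramble, and 0 of the 19 members that the group with the lower mean alone would have passed were called. Since that library differs in the quantity that is counted, these values describe the other 3 libraries and are not a test of the mimic. In them 20 of 70 members (18 of 62 without an uncertain value) lay below every VEH_scramble library, against 4.69% of all genes.

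Snord82 thus lay below every VEH_scramble library in all 12 libraries of the mimics under vehicle, which share those controls. Some of these values rest on few counts, such as 3 in VEH_miR-7a replicate 4 and 4 in VEH_miR-29a replicate 3. Its level was 11.5 ± 4.09 CPM in VEH_scramble, 3.02 ± 1.15 with miR-146a, 3.45 ± 2.26 with miR-29a and 4.26 ± 1.41 with miR-7a (SD, n = 4). Under LPS it was 6.86 ± 3.56 CPM in scramble, 2.86 ± 1.48 with miR-146a, 3.24 ± 1.87 with miR-29a and 2.53 ± 0.719 with miR-7a. The mimic groups differed from each other by less than their spread.

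Members were lower in LPS_scramble than in VEH_scramble with normalisation over all genes. With library sizes of their own for structural RNA genes, given below, this was not seen. Of 33 members tested between LPS_scramble and VEH_scramble, 14 were called lower and 0 higher, against 8.12% of all genes called lower and 9.10% called higher. The median log2 fold change was -1.16 (all genes 0.01), and 32 of 33 members were negative. The count was 5 of 11 box C/D members, 6 of 18 box H/ACA members and 3 of 4 scaRNAs, and the 6 include Snora26, the long row that is not a small RNA. By edgeR it was 15 and with the replicate number as a block 14, but it was 5 in a fit of all 32 libraries, 8 without VEH_scramble replicate 4 and 0 on the values as deposited. The filter of the fit asked for 1.33 CPM (before TMM scaling) in 4 libraries. Of the 14, Snora2b, Snord49a and Snord96a reached this in no LPS library, Snora16a in 1 and Snora34 in 2, so that these 5 entered through VEH_scramble, where they were high. Of the 17 members that the group with the lower mean alone would have passed, 9 were called, with a median of -1.36, again with Snora26 among them.

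The rule on named genes gave Snora2b, Snord33, Snord96a, Scarna13 and Snord17. Snora2b, a box H/ACA RNA of Kansl2, was at 0, 0.926, 0.598 and 0.538 CPM against 3.06, 3.45, 4.87 and 4.10, and for the reason just given no fold change is stated for it. In LPS replicate 1, where it was at 0, a count of 3 was worth 1.13 CPM, so the 0 there says little. Snord33, a box C/D RNA of the ribosomal protein gene Rpl13a that guides methylation of the small subunit RNA, was at 7.53, 6.12, 10.8 and 6.36 CPM against 17.5, 39.8, 40.8 and 43.4, a log2 fold change of -2.13 ± 0.31 (limma-voom adjusted p = 0.00104). The groups of both RNAs did not overlap.

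Scarna13 was at 185, 87.4, 187 and 134 CPM under LPS against 312 to 721, a log2 fold change of -1.87 ± 0.29 (limma-voom adjusted p = 0.00133), without overlap. Scarna2 was at 272, 149.6, 233 and 241 CPM against 306 to 866, a change of -1.36 ± 0.31 (adjusted p = 0.0122), also without overlap. Snord17 was at 21.8, 26.1, 81.0 and 39.4 CPM against 55.3 to 296, a change of -1.83 ± 0.48 (adjusted p = 0.0237), and LPS replicate 3 overlapped the scramble range under vehicle. Snord96a, within Rack1, was at 0 to 0.862 CPM under LPS, below the limit of the fit. Every LPS_scramble library was below every VEH_scramble library for 15 of 70 members (12 of 61 without an uncertain value), against 8.74% of all genes with values in as many libraries.

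Among the RNAs that act in processing of the ribosomal RNA precursor, Snora73a fell by 1.54 ± 0.34 (adjusted p = 0.0110) and Snord118 by 1.53 ± 0.28 (adjusted p = 0.00366) on the log2 scale with limma-voom. Snora73a was at 76.7, 46.0, 126 and 83.0 CPM under LPS against 119.8 to 351, overlapping in replicate 3, and Snord118 at 3.39, 3.06, 5.53 and 3.18 CPM against 8.56 to 16.6. Snora73b was at -1.44 (adjusted p = 0.0503). Snord22, the U22 RNA, was at 6.78, 2.63, 6.43 and 5.63 CPM against 4.92 to 18.8, overlapping. Snord13, which guides acetylation of the small subunit RNA, and Snora62 were at 1.88 CPM or less in these 8 libraries and their groups overlapped.

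Of the 21 hosts of the tested members, 7 were called lower under LPS and 1 higher, against 8.12% and 9.10% of all genes, with a median log2 fold change of -0.43. Rpl13a was at -0.70 ± 0.20 (limma-voom adjusted p = 0.0361) beside -2.13 for its Snord33, and Snx5 at -0.63 ± 0.14 (adjusted p = 0.0105) beside -1.83 for Snord17. Kansl2, the host of Snora2b and Snora34, was at -0.09 ± 0.16 (adjusted p = 0.727). Snhg3 was at -1.30 ± 0.32 (adjusted p = 0.0171) beside Snora73a, and Snhg12 at -0.04 ± 0.53 (adjusted p = 0.966) beside Snora61 at -1.56. No test of member against host was made.

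Other structural RNAs fell in the same comparison. Of 112 such genes tested, 34 were called lower and 0 higher, against 8.12% and 9.10% of all genes, with a median of -1.15, close to that of the members. They included the telomerase RNA Terc at -1.96 ± 0.26, Rpph1 at -1.73 ± 0.29, Rn7sk at -1.61 ± 0.27 and Rmrp at -1.59 ± 0.35 (limma-voom adjusted p = 5.37e-04, 0.00230, 0.00207 and 0.00973). The whole structural RNA share was 3.00% to 5.81% in LPS_scramble and 6.78% to 12.4% in VEH_scramble. With library sizes and TMM factors of their own for these genes, 0 of 30 members were called and the median log2 fold change was 0.17, and the members are themselves part of that class. The part of RNA recovery in it was not tested.

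**Figure D5:**
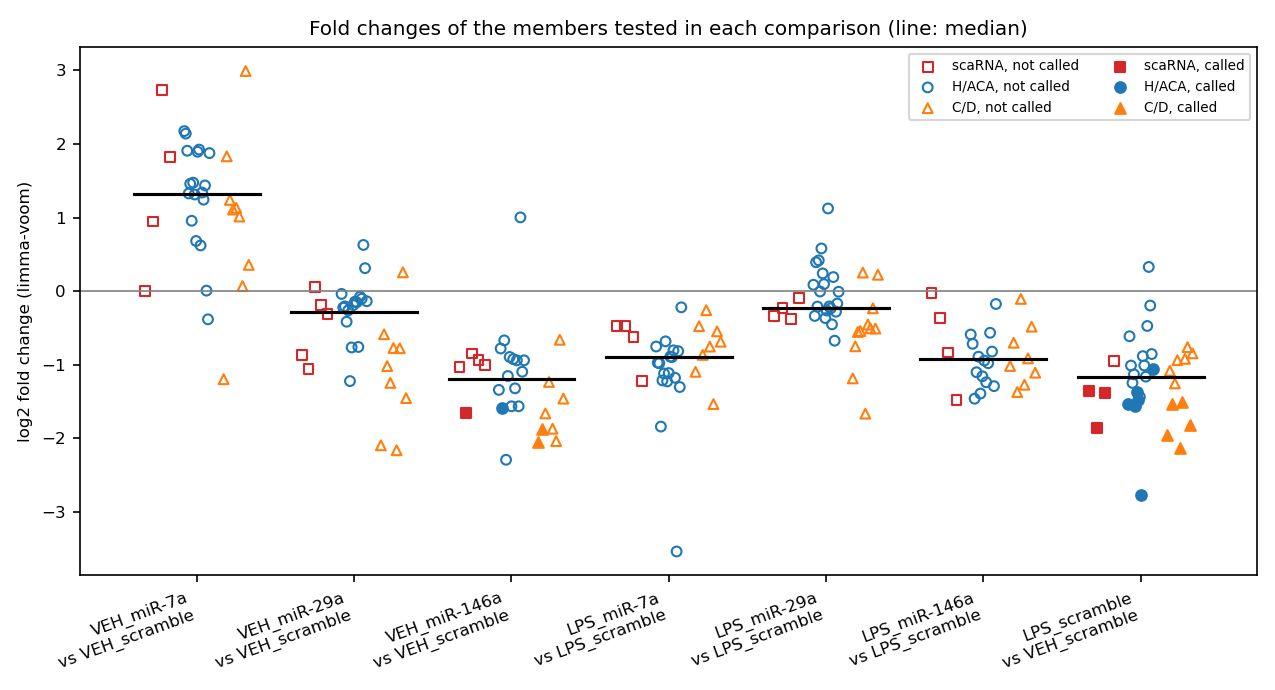
Log2 fold change of each tested member (y axis) in the 7 pairwise comparisons (x axis), with 1 point per member with the symbol of its family, filled where called, and a line at the median. Called members are found for VEH_miR-146a (4, all lower) and for LPS_scramble against VEH_scramble (14, all lower).

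Within LPS, no member passed the threshold for any mimic without pairing of the libraries. For LPS_miR-7a all 29 members tested were negative (median -0.89, all genes 0.01), 10 had an unadjusted p under 0.05, and 0 were called by limma-voom or by edgeR, against 2.36% of all genes. Same-numbered libraries of these groups deviated together, and with the replicate number as a block 9 members were called lower, against 4.63% of all genes. In the blocked fit these were Snora73a at -0.78 ± 0.11, Snora73b at -1.197 ± 0.16, Snora74a at -1.10 ± 0.14, Snord82 at -1.32 ± 0.27, Snord22, Snord89, Scarna2, Scarna13 and Scarna6. Of the 16 members that the group with the lower mean alone would have passed through the filter, 8 were called, all of these but Snord89. Without the block, Snora81 had the smallest p (-3.54 ± 0.94, limma-voom adjusted p = 0.0698), with 0, 0, 2.56 and 0 CPM against 1.35, 0.946, 1.89 and 2.23, so that replicate 3 was above every control library and the others were at 0. Snora81 overlaps an exon of Eif4a2 and entered the fit with the help of the LPS_scramble libraries. In no member were all LPS_miR-7a libraries below all LPS_scramble libraries (0 of 70), against 5.26% of all genes with values in as many libraries.

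For LPS_miR-146a all 26 members tested were negative (median -0.93, all genes -0.02), 5 had an unadjusted p under 0.05, and 0 were called by either tool, against 2.27% of all genes. The blocked fit called 6 lower, against 5.59% of all genes, namely Snora73a, Snora73b, Snora74a, Snord82, Snord22 and Scarna6, of which Snord22 reached the low-count limit in 3 of the 4 libraries of miR-146a. For 5 of 70 members (4 of 63 without an uncertain value) every LPS_miR-146a library was below every LPS_scramble library, against 5.08% of all genes with values in as many libraries. Snora74a, the U19 RNA, had the smallest p without the block at -1.24 ± 0.41 (limma-voom adjusted p = 0.148) and was at -1.25 ± 0.19 with it (adjusted p = 0.00558). Scarna3a was at -1.48 (adjusted p = 0.167) and Snora78 at -1.29 (adjusted p = 0.185) without the block. Neither reached the low-count limit in every LPS_miR-146a library, so both entered with the help of LPS_scramble, where they were higher.

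For LPS_miR-29a the members stayed near the controls, with a median of -0.23 over 35 tested (all genes 0.01), 25 of them negative. None of the 35 was called by limma-voom or edgeR and 0 had an unadjusted p under 0.05, while 4.52% of all genes were called. Snora2b was at 1.12 (limma-voom adjusted p = 0.267), Snord49a at -1.67 (adjusted p = 0.291) and Snord82 at -1.19 (adjusted p = 0.334). Snora2b did not reach the low-count limit in every LPS_scramble library, nor did Snord49a in every LPS_miR-29a library. Each entered with the help of the group where it was higher. With the block Snord82 was called lower at -1.01 ± 0.27 (adjusted p = 0.0260), against 5.72% of all genes called lower, and it reached the low-count limit in 3 of the 4 libraries of miR-29a. In the LPS comparisons with their own library sizes for structural genes, medians of members were -0.25 for miR-146a, -0.01 for miR-29a and -0.10 for miR-7a.

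Whether a mimic acted differently under LPS was tested as an interaction. With miR-7a 0 of 34 members were called (median -2.12, 6 with unadjusted p under 0.05), with miR-29a 0 of 30 (median 0.27, 1 under 0.05) and with miR-146a 0 of 29 (median 0.36, 6 under 0.05), and edgeR called 0 in each. Of all genes 0.00822%, 0.0163% and 0% were called. Without VEH_miR-7a replicate 1, 26 of 39 members were called lower in the miR-7a interaction, with a median of -4.18, against 0.969% of all genes. Of the 26, Snora41, Snord35a and Scarna3b reached the low-count limit in the VEH_miR-7a libraries only, and of the 30 members that the other 3 groups alone would have passed 23 were called. As above, this describes the other libraries and is not a test of the mimic. Over all replicates Snora73a was at -2.87 and Scarna6 at -3.28 (limma-voom adjusted p = 0.708 and 0.775). The miR-146a interaction had its smallest p values for Snora81 at -5.59 and Snord49a at 2.90 (adjusted p = 0.354 each), followed by Scarna13 at 1.27 (adjusted p = 0.372).

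Proteins of the same particles were called under LPS and with miR-146a under LPS, where 8.12% and 9.10% of all genes were called lower and higher and 2.27% were called, respectively. Of 4 box C/D core proteins tested, 0 changed under LPS and 1 fell with miR-146a under LPS, Nop56 by 0.70 ± 0.15 on the log2 scale (limma-voom adjusted p = 0.0402). Of 4 box H/ACA core proteins, Nop10 fell under LPS by 0.93 ± 0.26 (adjusted p = 0.0288). Of 15 assembly and Cajal body proteins tested, Tgs1, which caps small nuclear and nucleolar RNAs with trimethylguanosine, rose under LPS by 0.94 ± 0.25 (adjusted p = 0.0238), and Ruvbl2 and Nolc1 fell with miR-146a under LPS by 0.74 ± 0.14 and 0.57 ± 0.10 (adjusted p = 0.0251 and 0.0180). In the other mimic comparisons none of these proteins was called. Median log2 fold changes of the box C/D core proteins lay between -0.53 and 0.29 over the 7 pairwise comparisons, and those of the box H/ACA core proteins between -0.58 and -0.06.

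Of the noncoding snoRNA host genes on the list, 10 were tested under LPS and 3 fell, against 8.12% of all genes, Snhg20 at -1.111 ± 0.23, Snhg3 at -1.30 ± 0.32 and Snhg17 at -0.52 ± 0.14 on the log2 scale (limma-voom adjusted p = 0.00699, 0.0171 and 0.0313). Snhg6 fell with miR-7a under LPS by 0.80 ± 0.16 (adjusted p = 0.0267), where 2.36% of all genes were called, and Snhg3 with miR-146a under vehicle as given above. Of the guides of spliceosomal RNA modification, 3 of 4 tested fell under LPS and 1 of 5 with miR-146a under vehicle, where 8.12% and 0.825% of all genes were called lower. Of the RNAs for ribosomal RNA processing, 2 of 4 tested fell under LPS and 1 of 4 with miR-146a under vehicle, against the same shares of all genes.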

How the data were processed

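Total RNA of BV-2 cells was extracted with TRIzol, depleted of ribosomal RNA and made into libraries with the CORALL kit, then sequenced single-end. The submitters' processing notes name GRCm38, edgeR and limma, and the study's methods name the nf-core rnaseq workflow for alignment and quantification of these libraries. The aligner and counter within it are not named for them. The authors deposited estimated counts (expected counts per gene, 45706 genes and 32 libraries), which had lost their decimal marks. Of 590874 values above 0, 28.9% were given back 1 to 3 decimals with a model that weighs the other replicates, with library sizes of their own for small structural RNA genes. A value with a posterior under 0.9 (2.54% of values, 36 of 1933 member values) was treated as uncertain, and the gene was left out of fits that use it. The summed share leaves uncertain values out, except in the values per library with 1 set of library sizes. Levels and library-by-library counts of the 70 members use the most probable reading, and the counts are also given over members without an uncertain value. Snord17, Scarna6, Scarna13, Scarna2, Snord82 and Snord118 were read as whole counts throughout.

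Each comparison was fitted on the whole table with limma-voom 3.58.1 and edgeR 4.0.16 (filterByExpr, TMM) over its own libraries. The filter, TMM and a design per pair of conditions follow the study's methods, while voom and the absence of covariates were chosen here, and p-values were adjusted over all genes by Benjamini-Hochberg. Host genes and positions are from the GENCODE annotation of GRCm38. The members, lists and tests were chosen with earlier results of these data known. Genes were named by rule, covering listed members, the 10 most abundant per kilobase, called members (up to 5 in a direction, or the 3 with the smallest p) and their hosts, and the called genes of other lists. Other members named in the text, such as those that entered a fit through the group where they were high and the members called in the blocked fits, were chosen after their values were seen. Restoration and test were tested on simulated data for LPS_scramble against VEH_scramble (12709 genes). These data were drawn from the restored counts, so they do not test the choice of library sizes in the restoration. There 99.9% of certain values came back right, and 72.1% of 104 genes changed by log2 1 and 93.8% of 81 genes changed by log2 2 were recovered. Of 12357 unchanged genes outside the structural RNA class 13 were called. No such rate was measured for the members, which belong to that class.

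Replicate numbers were taken to pair libraries where every same-numbered pair deviated together (correlation over 0.1). This held for VEH_miR-29a (lowest 0.102), LPS_miR-7a (0.236), LPS_miR-29a (0.292) and LPS_miR-146a (0.156) against their scramble groups and for LPS_scramble against VEH_scramble (0.172). The column headers carry the replicate number and the study describes its replicates as independent experiments. Neither says that a number marks the same experiment in all groups, so the pairing rests on these correlations. Some pairs with different numbers also passed the limit, such as VEH_scramble replicate 4 with LPS_scramble replicate 3 (0.236). Alternatives covered normalisation, filters, thresholds, the restoration, sample weights, the block and each library left out.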

Additional observations from a re-analysis of the deposited data

Results flagged for a closer look

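In 4 of 32 groups of 4 libraries examined (the summed share and that of each family in the 8 groups), the highest or lowest library lay far from the rest by Dixon's criterion, which flags about 1 group in 20 by chance (5%). The summed share of the members in VEH_miR-7a was 0.128% in replicate 1, far below the 0.974% to 1.13% of the other replicates. In VEH_miR-29a replicate 2 stood out, with 0.487% for all members and 0.205% for the box H/ACA members, against at most 0.170% and 0.0574% in the other replicates. In LPS_miR-29a replicate 1 had 0.0562% of its counts in scaRNAs against 0.0417% to 0.0434%.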

How the results depend on the processing

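Of the recomputed counts of called members, 187 stayed within 1.5 times the main count and 37 did not. Of the recomputed values of named members 639 kept their call, 54 lost and 17 gained one. The 2 others were uncalled values of Snora73a with library sizes of structural RNA genes, at -0.02 for VEH_miR-7a and 0.12 for its interaction with LPS, with the sign turned. Where groups were taken as unpaired, the replicate block gave 23 members higher for VEH_miR-7a and 13 lower for VEH_miR-146a, against 0 and 4. Where they were paired it gave 9 lower for LPS_miR-7a, 1 for LPS_miR-29a and 6 for LPS_miR-146a, against 0 each. The block changed no other count by more than 1.5 times. For VEH_miR-146a the count was 12 without the filter on low counts, 9 with edgeR, 25 with sample quality weights, 0 on the values as deposited and 0 with library sizes of structural RNA genes. For LPS_scramble against VEH_scramble (14) it was 0 with those library sizes, 5 in a fit of all 32 libraries and 0 on the values as deposited. Sample quality weights gave 9 for VEH_miR-29a and 1 for the miR-146a interaction. Without the filter LPS_miR-7a had 1 and LPS_miR-146a 2, and LPS_miR-146a had 1 with all 32 libraries and 1 on the values as deposited. Without single libraries the count ran from 0 to 29 for VEH_miR-7a and from 0 to 26 for its interaction with LPS (the highest without VEH_miR-7a replicate 1), from 0 to 1 for VEH_miR-29a (without its replicate 2), from 0 to 17 for VEH_miR-146a (17 without VEH_scramble replicate 1, 2 without its replicate 2 and 0 without any other library), from 0 to 3 for LPS_miR-7a, from 0 to 2 for LPS_miR-146a (both highest without LPS_scramble replicate 2, and 1 without LPS_miR-7a replicate 3 or LPS_miR-146a replicate 1, 2 or 4) and from 8 to 20 for LPS_scramble against VEH_scramble (8 without VEH_scramble replicate 4). The cause was not tested. The summed share of VEH_miR-7a, 0.837% of all counts, was 1.43% of protein-coding counts and 0.516% with 1 set of library sizes in the restoration. Fitting the uncertain values at their most probable reading was added after seeing the data and gave 16 for LPS and 3 for VEH_miR-146a. In VEH_scramble 3 of 21 members of at most 100 bases and 23 of 49 longer ones reached 4.09 CPM, worth 3 counts in the shallowest library. Over the members that the group with the lower mean alone would have passed through the filter on low counts, the median log2 fold change was 1.455 for VEH_miR-7a, -0.21 for VEH_miR-29a, -1.29 for VEH_miR-146a, -0.78 for LPS_miR-7a, -0.22 for LPS_miR-29a and -0.65 for LPS_miR-146a, with 9 to 16 tested members left out of each of these and of the LPS comparison.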
